A study of Mus musculus with 4 samples.

Results

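Chromosome 13 was read with 7502 of the 170305 mouse probes of the array, of which 7501 gave a value on all 4 arrays. They were the genomic probes of the chromosome on mm9 (NCBI build 37), without the 80 probes that start from 19 to 20 Mb, where the T cell receptor gamma genes (Tcrg) lie, and without the 8 probes of Nnt, a mitochondrial transhydrogenase gene that is partly deleted in C57BL/6J mice. The chromosome was chosen by a measured value, its low mean log2 ratio in tumour 2, so its level there is given as a description with no test. The members ran from 3004789 to 120283183 with a median spacing of 11.1 kb, and they carried 834 gene names. Only 1 member was not well above background on an array and 1 was saturated.

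Array comparative genomic hybridisation lets tumour DNA and normal DNA compete for the same probes, so a stretch present in fewer copies in the tumour gives a lower ratio of tumour to reference signal. Loss or gain of an entire chromosome arises when chromosomes are segregated unequally at cell division, and cells without p53, the product of Trp53, tolerate such errors better than normal cells do. Mouse chromosome 13 is acrocentric and carries large clusters of related genes, among them replication-dependent histones, Serpinb protease inhibitors, prolactin relatives, placental cathepsins and zinc finger repressors, besides liver enzymes, growth regulators and DNA repair genes.

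The series holds 4 liver tumours, each from a separate C57BL/6J mouse in which Trp53 was lost in the liver, labelled Trp53-/-, male and untreated. Each was hybridised on 1 array, with tumour DNA in Cy5 (red) and reference DNA in Cy3 (green). The reference was spleen DNA pooled from 3 littermates matched for sex by the series' design, although the labelling protocol calls it liver, and both channels carry the genotype Trp53-/- in the labels. Neither the age of the mice nor the promoter behind the liver-specific loss is given in the sources used here. A ratio from bulk tumour DNA cannot tell a loss in a share of the cells from a smaller change in every cell.

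The arrays differed in quality. The noise SD between neighbouring probes was 0.26, 0.32, 0.16 and 0.17 in tumours 1 to 4, so tumour 2 was the noisiest. Tumours 1 and 4 shared a slide. The X chromosome was at 0.81, 0.18, 0.037 and -0.050 in tumours 1 to 4, and the Y at -3.03, -1.12, -0.53 and -0.43. Tumour 1 went against the male label shared by both channels. Tumour 2 lay between tumour 1 and tumours 3 and 4 on both chromosomes. The interval of Trp53, the targeted gene, on chromosome 11 averaged 0.12, -0.043, -0.052 and 0.028 over 12 probes in tumours 1 to 4. Which exons were deleted is not given in the labels, so these probes do not check the genotype.

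The array reads single stretches of about 60 bases, and a few probes stood far from the rest of the chromosome. Sequences of 8 such probes are shown because the segments of 1 probe, 1 gene call (AK014969) and the odd values of Serpinb6a described further on rest on probes among them, with the Serpinb9e probe beside them. They were chosen after their values were seen. They are printed 5′ to 3′ as the array files give them, with G and C in capitals since base composition moved with the ratios; the strand is not given in the files. The first 5 were displaced the same way in every tumour.
chr13:3345824-3345883: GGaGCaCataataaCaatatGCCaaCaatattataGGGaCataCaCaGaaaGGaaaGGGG
chr13:48137147-48137206 (AK076387): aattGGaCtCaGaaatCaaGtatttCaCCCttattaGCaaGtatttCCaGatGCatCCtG
chr13:52177482-52177541: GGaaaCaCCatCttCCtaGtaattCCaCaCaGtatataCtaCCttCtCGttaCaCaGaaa
chr13:96179094-96179153: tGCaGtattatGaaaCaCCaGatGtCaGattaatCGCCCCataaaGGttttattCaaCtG
chr13:118328549-118328608: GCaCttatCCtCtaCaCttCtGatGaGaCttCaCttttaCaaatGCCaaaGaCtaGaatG
The next 3 were high in tumour 1 and low in tumour 3.
chr13:34027136-34027195 (Serpinb6a): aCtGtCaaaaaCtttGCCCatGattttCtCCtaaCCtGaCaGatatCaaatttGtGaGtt
chr13:50513801-50513860 (Fbxw17): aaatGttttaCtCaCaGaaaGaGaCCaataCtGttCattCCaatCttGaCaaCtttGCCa
chr13:110200014-110200073 (Pde4d): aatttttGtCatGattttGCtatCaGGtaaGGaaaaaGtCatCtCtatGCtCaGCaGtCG
The last is the only probe named for Serpinb9e.
chr13:33351866-33351919 (Serpinb9e): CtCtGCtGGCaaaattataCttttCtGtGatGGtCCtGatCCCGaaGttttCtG

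Chromosome 13 lay at -0.20 on the log2 scale in tumour 2 and near 0 in the others. Its mean log2 ratio was -0.0028 ± 0.0064 (SE over 116 bins of 1 Mb) in tumour 1. In tumour 2 it was -0.20 ± 0.0056, a tumour to reference ratio of 0.872. Tumour 3 stood at 0.014 ± 0.0046 and tumour 4 at -0.016 ± 0.0047. The 3 other tumours averaged -0.0016 ± 0.015 (SD, n = 3), and tumour 2 lay 0.197 below them (difference -0.197). Because tumour 2 chose the chromosome, this gap was not tested. Without tumour 1, the array that went against its label, the difference was -0.197 as well. Among single probes 70.9% were below 0 in tumour 2, against 47.8%, 45.5% and 48.3% in tumours 1, 3 and 4.

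Within tumour 2 only chromosome 12 was lower than chromosome 13 among the 19 autosomes, at -0.23 ± 0.0068, and chromosome 9 was nearly level with it at -0.19 ± 0.0050. Chromosomes 9 and 12 were low in tumour 1 as well, at -0.31 and -0.29, whereas chromosome 13 was not. In tumour 3 they were at -0.10 and -0.073. In tumour 4 chromosome 13 lay inside the range of the other autosomes, -0.034 to -0.0032. The plot of autosome levels shows chromosome 13 leaving the main body of chromosomes in 1 tumour.

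**Figure D1:**
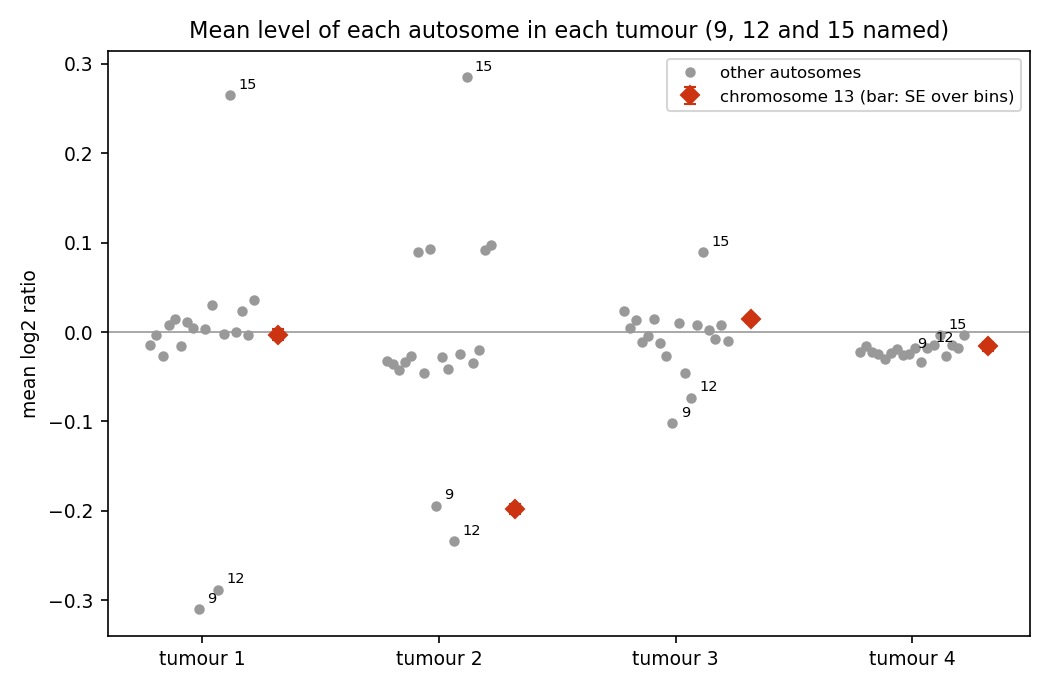
Mean log2 ratio (vertical axis) of each of the other autosomes (grey points; 9, 12 and 15 named) and of chromosome 13 (red diamonds, with the SE over 1 Mb bins) in each tumour. Chromosome 13 is at -0.20 in tumour 2, between chromosomes 9 and 12, and between -0.016 and 0.014 in the other tumours.

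The low level in tumour 2 was carried by the tumour channel. After each channel was centred on its autosomes, the red log2 signal of chromosome 13 in tumour 2 lay -0.19 ± 0.0042 (SE over bins) from the mean of the other 3 arrays, whereas the 15 autosomes other than 9, 12, 13 and 15 lay between -0.030 and 0.11. The green log2 signal, from reference DNA, differed by -0.012 ± 0.0021, inside the range of those autosomes (-0.015 to -0.0026). On the other arrays the red shift of chromosome 13 was 0.079, 0.051 and 0.063 in tumours 1, 3 and 4, since tumour 2 is part of the mean each of them is set against.

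**Figure D2:**
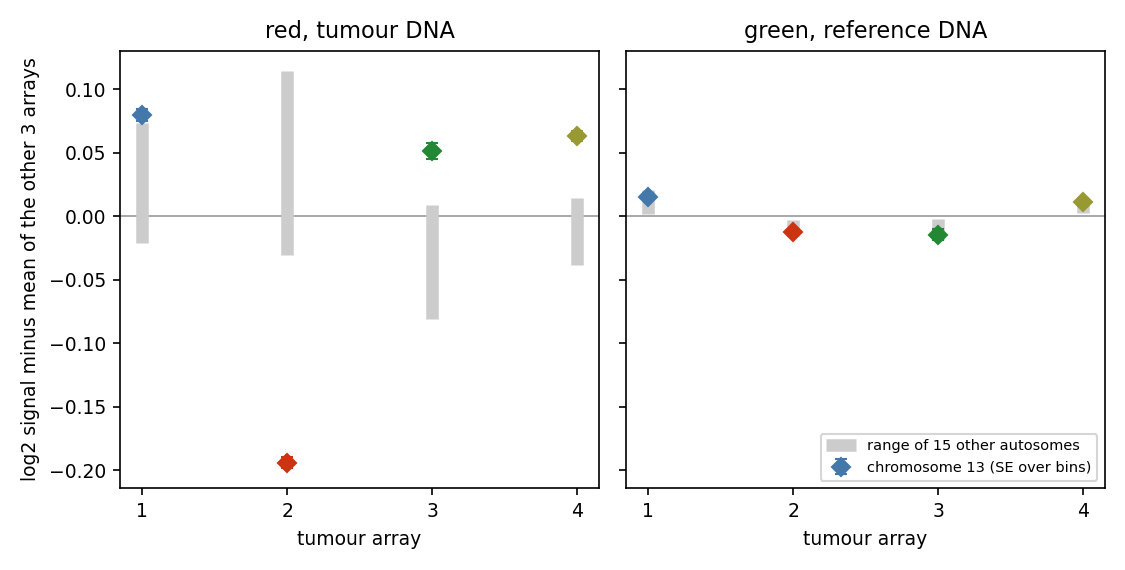
Log2 signal of chromosome 13 on each array minus the mean of the other 3 arrays (diamonds, with the SE over bins), in the red channel with tumour DNA and the green channel with reference DNA; grey bars give the range of 15 other autosomes. The red signal of tumour 2 is at -0.19, below its grey bar, and the green signals stay between -0.014 and 0.015.

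The low values ran over the whole chromosome in tumour 2. All 116 bins were below 0 there, from -0.47 through a median of -0.20 to -0.014, and 55 of them were at or below the calling threshold of -0.2. In tumour 1 the bins ran from -0.16 to 0.21 with 59 of 116 below 0. In tumour 3 they ran from -0.14 to 0.13 with 42 below 0, and in tumour 4 from -0.30 to 0.13 with 76 below 0. Tumour 2 was the lowest of the tumours in 115 of the 116 bins. The exception was the bin from 50000001 to 51000000, which holds 16 probes and the Fbxw17 probe printed above; it was at 0.21, -0.014, -0.061 and 0.13 in tumours 1 to 4. Over all autosomes tumour 2 was the lowest in 27.1% of bins, a share that includes chromosome 13.

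**Figure D3:**
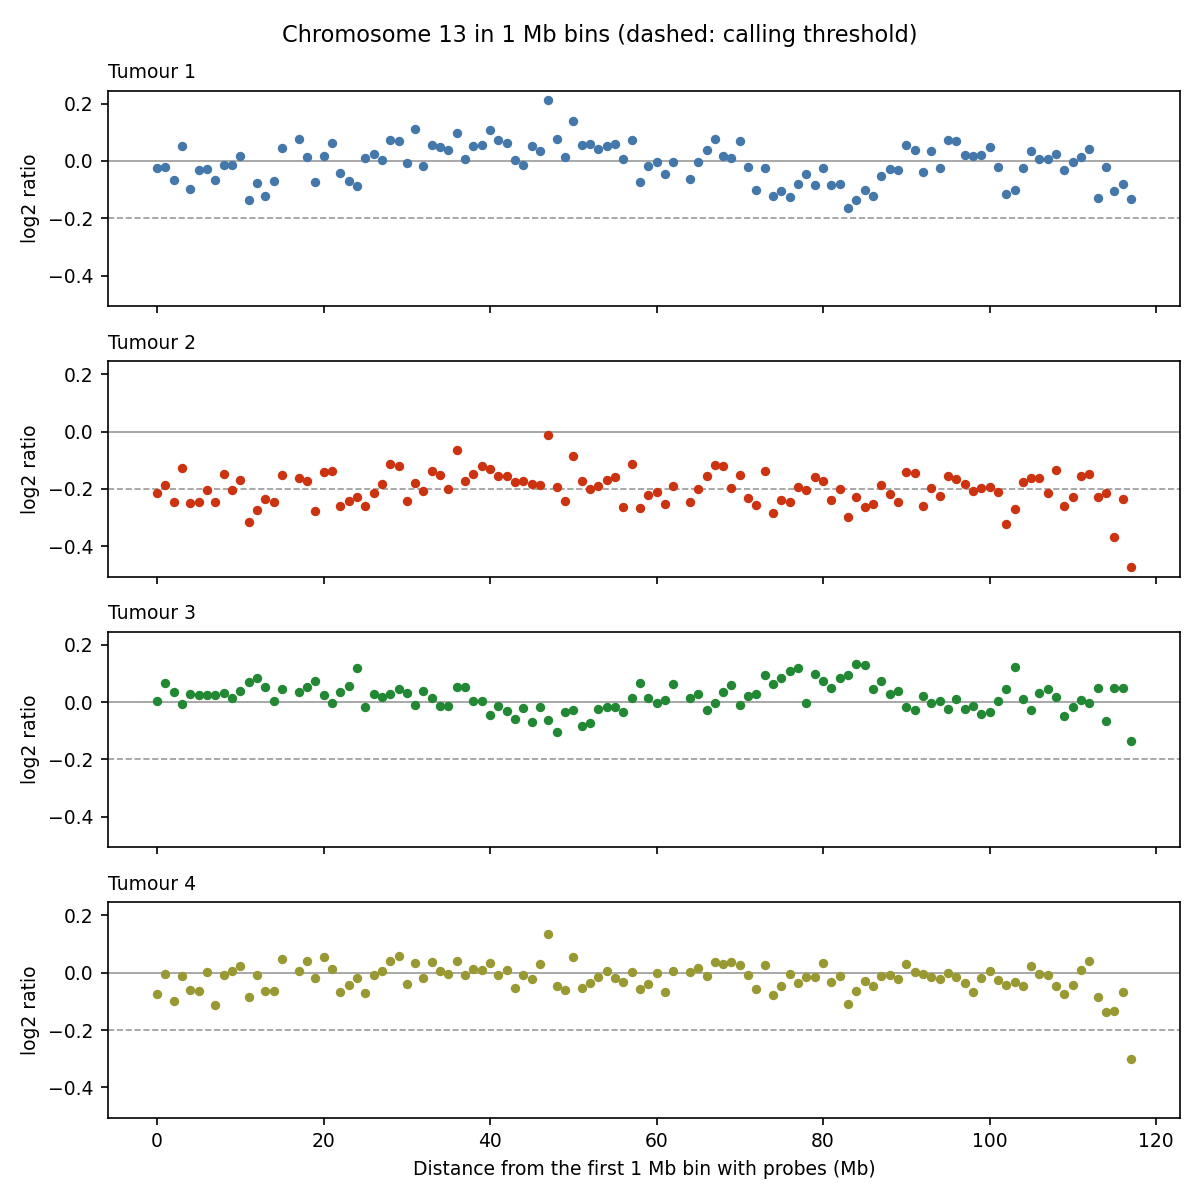
Mean log2 ratio of the 116 bins of 1 Mb along chromosome 13, by distance from the first bin with probes, with 1 panel per tumour; the solid line is 0 and the dashed line the calling threshold of -0.2. The points of tumour 2 lie around -0.20 from end to end, and those of the other tumours around 0. Dips and rises are shared in part by tumours 1, 2 and 4, and not by tumour 3.

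The gap between tumour 2 and the mean of the others varied along the chromosome about as much as on other autosomes. It was below 0 in all 116 bins, from -0.30 to -0.11 with a median of -0.20. Its SD over bins was 0.037, against 0.029 from probe noise alone, and the same SD on the other autosomes ran from 0.030 to 0.049. The SD depended on the tumours in that mean. It was 0.055 without tumour 1, 0.029 without tumour 3 and 0.041 without tumour 4. The other autosomes were not read with a tumour left out. Over the 12 full windows of 10 Mb tumour 2 ran from -0.22 to -0.16; the last 16 probes, from 120 Mb on, were at -0.47. From 80 to 90 Mb it was at -0.22 ± 0.014 (SE over bins) and from 40 to 50 Mb at -0.16 ± 0.0070. The same 2 windows read -0.092 and 0.043 in tumour 1, then 0.083 and -0.020 in tumour 3, and finally -0.032 and -0.00031 in tumour 4. The gap to the mean of the others ran from -0.22 to -0.17 over the full windows.

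What structure there was inside the chromosome was largely shared between tumours 1, 2 and 4, and not with tumour 3. Over the 116 bins tumour 2 correlated with tumour 1 at r = 0.79 and with tumour 4 at 0.80, and tumours 1 and 4 correlated at 0.64. Tumour 3 correlated with tumour 1 at -0.58, with tumour 2 at -0.17 and with tumour 4 at 0.082. These points share the probes and, for tumours 1 and 4, the slide, and the values describe the arrays only. The GC share of the bins correlated with the ratio at 0.47, 0.27, -0.46 and 0.21 in tumours 1 to 4, with the opposite sign in tumour 3. After GC correction the correlations of tumour 2 were 0.77 and 0.79 with tumours 1 and 4. The part of base composition and slide in this pattern was otherwise not tested.

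Segmentation placed tumour 2 just short of the threshold for a called loss. A segment of 7386 probes, from 3004789 to 118307787, had a mean of -0.20 (-0.197 before rounding) and was not called at -0.2. A second segment of 114 probes, from 118360308 to 120283183, was at -0.29 ± 0.033 (SE over probes) and was called lost. Its genes include Mrps30, which encodes a mitochondrial ribosomal protein, and Fgf10, which encodes a growth factor. In these 1.92 Mb tumour 1 was at -0.074 ± 0.025, tumour 3 at 0.036 ± 0.018 and tumour 4 at -0.10 ± 0.024. Tumour 4 had a segment of its own there, at -0.091 over 113 probes, next to a segment of 70 probes with Parp8 and Emb at -0.12. Tumour 2 lay -0.24 ± 0.021 from the mean of the others over this stretch and -0.196 ± 0.0026 over the rest of the chromosome.

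The call covered 1.52% of the members in tumour 2, against 4.3% of all probes called lost in that tumour; since this contrast chose the chromosome, nothing is read from the share. No member was called lost in tumours 1, 3 and 4, where 8.8%, 0.174% and 0.116% of all probes were, and 0 members were called gained in any tumour, where 8.67%, 3.93%, 0.0787% and 0.0764% of all probes were. With a threshold of 0.1 the share in tumour 2 became 99.99%, and with 0.3 it became 0%. Centring on the mode or without chromosomes 9, 12, 13 and 15 gave 99.99%, and normexp background correction 100%. The level lay so close to the threshold that the call followed the settings. The level of each tumour moved by less than the SD over the 4 tumours, which tumour 2 itself widens.

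Tumours 1, 3 and 4 had only shallow segments. Tumour 1 was split into 4, from -0.091 to 0.030, of which the lowest spanned 75025163 to 89899353. Over that stretch tumour 3 was at 0.069, tumour 4 at -0.031 and tumour 2 at -0.23. Tumour 3 had 20 segments, 9 of them single probes, and its longer ones lay between -0.051 and 0.079. Tumour 4 had 18, of which 8 were single probes and 1 held 2 probes, with the longer ones between -0.12 and 0.0067.

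The probes printed above as displaced the same way in every tumour were single. The probe at 118328549, between the 2 long segments of tumour 2, read -1.003, -2.87, -0.59 and -2.61 in tumours 1 to 4. Its neighbours read -0.25 and -0.35 in tumour 2 and 0.11 and -0.21 in tumour 4. The probe in AK076387 read -1.35, -2.01, -1.13 and -1.59, the one at 52177482 read -1.08, -1.77, -1.12 and -1.63, and the one at 96179094 read -1.26, -1.53, -1.60 and -1.50. The probe at 3345824 was high throughout, at 0.93, 1.24, 0.72 and 0.63. In all, 3 of the 7501 members (0.040%) were under -1 relative to the chromosome in every tumour, against 0.07% of all autosomal probes. Over 0.5 in every tumour was 1 member (0.013%), against 0.0267%. Both shares were below those of all autosomes, chromosome 13 included.

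A further 6 members were above 0.5 in a tumour and under -1 in another, relative to the chromosome. That is 0.080%, close to the 0.0688% of all autosomal probes, chromosome 13 included. All of them were high in tumour 1 and low in tumour 3. The Fbxw17 probe read 1.29, -0.043, -1.30 and 0.96 in tumours 1 to 4. The Pde4d probe, in a gene for a cyclic AMP phosphodiesterase, read 1.26, -1.46, -1.04 and -0.37. A probe in Fst, which encodes the activin antagonist follistatin, read 0.60, -1.15, -1.13 and 0.39. These are single oligonucleotides, and the next probe on either side did not share their values.

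The Serpinb cluster holds intracellular protease inhibitors of the clade B serpins, among them Serpinb9, which blocks granzyme B, and the Serpinb1 and Serpinb6 genes, which restrain neutrophil and lysosomal proteases. Its 12 named genes lay from 32935875 to 34087585 with 73 probes, at 0.026 ± 0.036 (SE over probes), -0.23 ± 0.041, 0.0061 ± 0.028 and -0.021 ± 0.028 in tumours 1 to 4. Relative to the rest of chromosome 13 it was at 0.030, -0.028, -0.0082 and -0.0049, a mean of -0.0030 ± 0.024 (SD, n = 4). The -0.028 of tumour 2 was smaller in size than its SE over probes. Inside the cluster tumour 2 ran from -0.020 in Serpinb1c to -0.39 in Serpinb6c. Tumour 2 was the lowest in 11 of the 12 genes, which the choice of chromosome sets up. The lowest interval relative to the chromosome was Serpinb9e, at -0.13, -0.34, -0.18 and -0.097, and the highest Serpinb1c, at 0.20, -0.020, -0.0023 and 0.10.

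Serpinb6a carried the odd probe of the cluster. Its probe at 34027136 read 1.09, -0.47, -1.54 and 0.59 in tumours 1 to 4, and its neighbours at 34021406 and 34039139 read -0.038 and -0.14 in tumour 1 and -0.065 and 0.26 in tumour 3. The Serpinb6a interval of 16 probes averaged 0.014 ± 0.087, -0.35 ± 0.067, -0.046 ± 0.11 and 0.0064 ± 0.050. Without that probe it was at -0.058 ± 0.054, -0.34 ± 0.071, 0.053 ± 0.044 and -0.033 ± 0.033. The values of tumours 1, 3 and 4 changed sign, and tumour 2 stayed lowest in both versions.

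The histone cluster encodes replication-dependent histones, which package newly made DNA. Only 3 names of it were on the array, Hist1h1d (a linker histone), Hist1h2be and Hist1h2bc (both H2B histones), with 16 probes from 23648864 to 23780328. It was at -0.046 ± 0.093, -0.19 ± 0.085, 0.032 ± 0.036 and 0.055 ± 0.054 (SE over probes) in the order of the tumours. Relative to the rest of the chromosome this was 0.015 ± 0.047 (SD, n = 4). Hist1h2bc was the lowest at -0.0087, -0.21, -0.015 and 0.058, and Hist1h1d the highest at 0.045, -0.10, 0.020 and 0.11. Tumour 2 was below the other tumours in all 3 intervals, which share probes.

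A wider histone stretch, chosen after the data were seen, ran from Btn2a2 to Slc17a2 (23586965 to 23894527, 34 probes). Its mean was 0.020 ± 0.054, -0.12 ± 0.051, 0.017 ± 0.022 and 0.074 ± 0.032 in tumours 1 to 4. It lay 0.049 ± 0.042 (SD, n = 4) above the rest of the chromosome, so in tumour 2 it was less low than the chromosome by about as much as in tumour 4 (0.078 and 0.090). The other tumours showed 0.023 and 0.0027.

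The other clusters were below 0 in tumour 2 as well, at differing distances from the rest of the chromosome. The prolactin family, 14 genes for hormones of the pituitary and placenta, was at -0.10, -0.25, 0.13 and -0.024 in tumours 1 to 4. Relative to the rest of the chromosome it was at -0.10, -0.049, 0.11 and -0.0082, a mean of -0.012 ± 0.091 (SD, n = 4). Its lowest member relative to the chromosome was Prl5a1 at -0.21, -0.37, 0.12 and -0.13, and its highest Prl2b1 at 0.083, -0.059, 0.17 and 0.13. The aldo-keto reductases, 8 genes of steroid and carbonyl reduction, were at -0.015, -0.18, 0.052 and -0.015, between Akr1c12 (-0.18, -0.36, 0.11 and -0.078) and Akr1c20 (0.053, -0.035, 0.053 and 0.023). In both families tumour 3 was the highest and tumour 2 the lowest.

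The placental cathepsins, 6 cysteine protease genes, had the lowest mean of the clusters in tumour 2. They were at -0.13 ± 0.046, -0.31 ± 0.070, 0.062 ± 0.027 and -0.082 ± 0.037 (SE over 34 probes) in tumours 1 to 4. Relative to the rest of the chromosome they were at -0.12, -0.11, 0.048 and -0.066, a mean of -0.063 ± 0.078 (SD, n = 4), so tumour 1 was displaced as much as tumour 2. Ctsq, at -0.18, -0.46, 0.040 and -0.17, was the lowest and Cts8, at -0.0031, -0.19, 0.11 and 0.023, the highest. The probes of the cluster had a GC share of 35.7%, against 36.7% over the chromosome. After GC correction the mean relative to the rest was -0.044. With only probes well above background, which leaves out 1 member of chromosome 13, it was -0.038. The low mean of this cluster thus rested in part on that probe.

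The zinc finger genes, 25 picked by the names Zfp or Rsl, were not checked to be repressors. Most lay from 67179655 to 67923915, and the remainder were scattered along the chromosome. All 25 together were at -0.0048, -0.21, 0.011 and 0.0064 in tumours 1 to 4, within 0.0026 ± 0.014 (SD, n = 4) of the rest. Zfp493 was the lowest at -0.12, -0.31, -0.079 and -0.064, and Zfp187 the highest at 0.13, -0.13, 0.11 and 0.098. The Naip family, 4 genes for sensors of bacterial flagellin and secretion proteins, was at 0.015, -0.18, -0.0050 and -0.077. It ran from Naip2, at -0.066, -0.24, -0.0070 and -0.13, to Birc1f, an older name of Naip6, at 0.082, -0.10, -0.025 and -0.048. Of the granzymes, the killer cell proteases, only Gzma was named, and its interval of 10 probes was at -0.068, -0.35, -0.011 and -0.075. No vomeronasal or olfactory receptor name was found among the members.

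**Figure D4:**
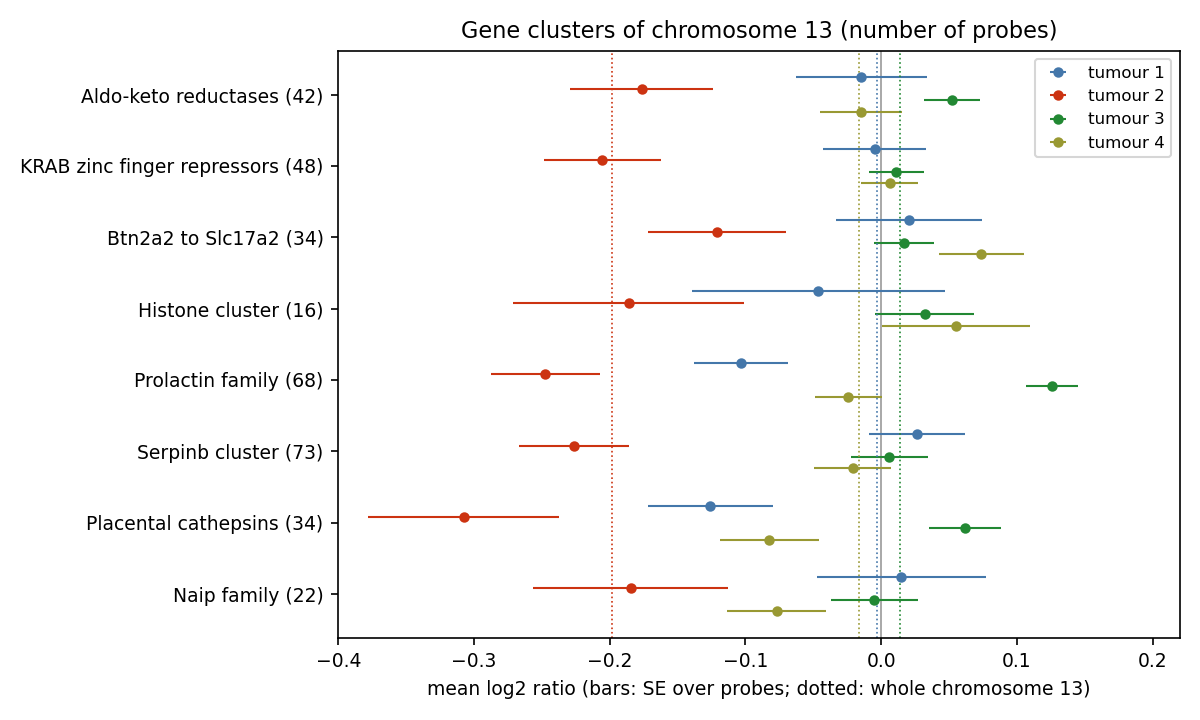
Mean log2 ratio (horizontal axis) of 8 stretches of related genes on chromosome 13 in each tumour, with the SE over probes as bars, the number of probes in brackets and the whole-chromosome level of each tumour as dotted lines. In tumour 2 the stretches lie from -0.31 (placental cathepsins) to -0.12 (Btn2a2 to Slc17a2), to the left of the other tumours.

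Genes were next compared with their own chromosome, which takes out most of the shift that chose it. A gene's interval spans its named probes and 50 kb on each side, and the median of the chromosome in the same tumour was subtracted. In tumour 2 that median was -0.17 and the mean -0.20, and in the other tumours too the mean lay below the median. Intervals thus read slightly below 0, with a median of -0.013 on chromosome 13 and -0.012 over all intervals. How far this favoured lower calls was not tested. With limma's moderated test over the 4 tumours and Benjamini-Hochberg adjustment over 20778 gene intervals, 13 of the 834 intervals of chromosome 13 passed 0.05, 12 lower and 1 higher. That is 1.56%, close to the 1.44% of all intervals; the background was 1.32% lower and 0.125% higher. An unadjusted p under 0.05 was reached by 216 (25.9%), against 24.8% of all intervals. Of the 116 bins 0 passed with limma, against 0.0787% of 2540 bins in the genome. An unadjusted p under 0.05 was reached by 18 bins (15.5%), against 13.5% of all bins.

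The called intervals held from 3 to 21 probes, and some of them adjoined or overlapped another. AK014969 was at -0.15, -0.29, -0.29 and -0.36 relative to the chromosome in tumours 1 to 4 (mean -0.27 ± 0.085 SD, limma adjusted p = 0.027). 4833420G17Rik and its neighbour Paip1, which encodes a partner of the poly(A)-binding protein, averaged -0.25 and -0.23 at the distal end, lowest in tumour 4 at -0.40 and -0.36. Mxd3, which encodes a partner of the Myc network protein Max, was at -0.24, -0.29, -0.14 and -0.27 (limma adjusted p = 0.027). Gpx8, a peroxidase gene of the endoplasmic reticulum, was at -0.24, -0.25, -0.15 and -0.23 (limma adjusted p = 0.026). Cox7c, for a subunit of cytochrome c oxidase, averaged -0.18 ± 0.049 (SD, n = 4). AK033894 and AK029426 averaged -0.24 and -0.23.

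Cdc14b, a phosphatase gene of mitotic exit, averaged -0.17 ± 0.059 (SD, n = 4; limma adjusted p = 0.047), and the adjoining 1110018J18Rik, now Prxl2c, averaged -0.17. Serpinb9e was at -0.14, -0.18, -0.19 and -0.10 (mean -0.15 ± 0.040; limma adjusted p = 0.045). Its own probe, printed above, read 0.23, -0.033, -0.36 and 0.064 relative to the chromosome, and the interval without its most extreme probe averaged -0.076. ENSMUST00000109244, next to Gpx8, averaged -0.14. The only interval called higher was AK043578, at 0.22, 0.18, 0.10 and 0.13 (limma adjusted p = 0.0499).

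Single probes carried part of these values. The 13 intervals had 10 different most extreme probes, 3 of them shared by a pair of intervals, and 7 intervals had 1 probe of their own. Without its most extreme probe, 10 of the 12 lower intervals stayed below 0, while AK014969 moved to 0.094 and AK029426 to 0.058. Of the 13 intervals 10 kept over 50% of their mean; the extreme probe of AK014969 is the one printed at 52177482. The calls also depended on the set of arrays. Without tumour 3, 287 intervals and 41 bins of chromosome 13 passed limma's test. Without tumour 1 a single interval (1) passed, and without tumour 2 or tumour 4, or with the mean of a slide as the unit, 0 did. With no flank 2 passed, with within-array loess 3 and with normexp 59.

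**Figure D5:**
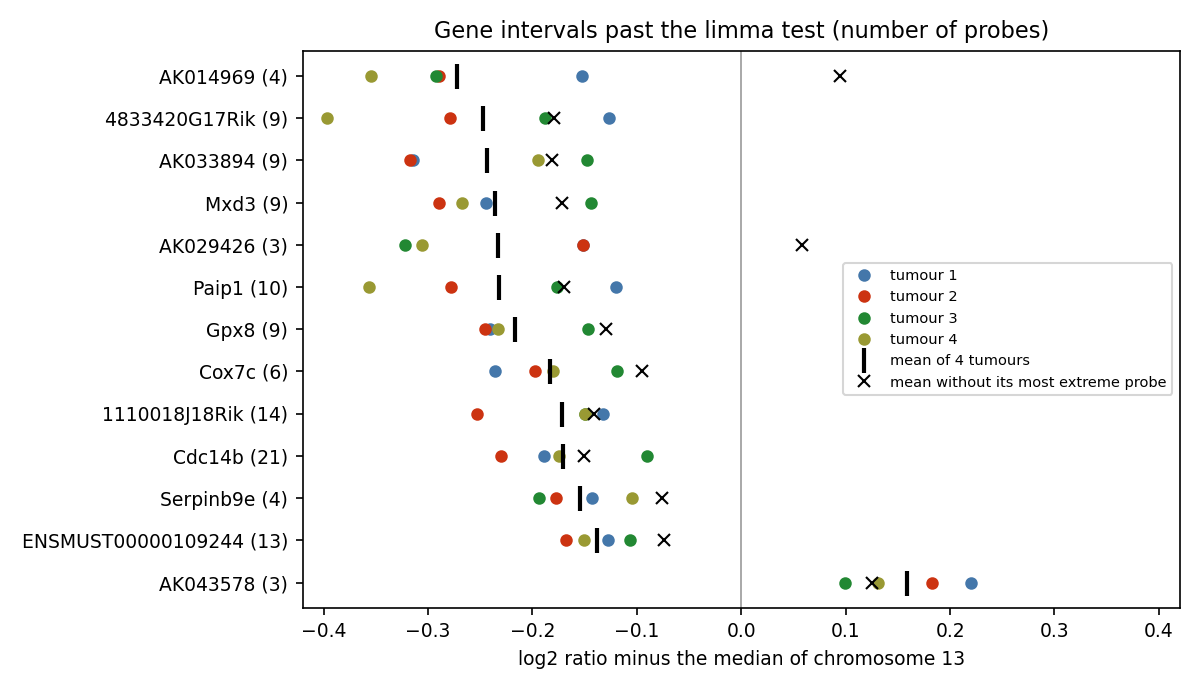
Log2 ratio relative to the median of chromosome 13 (horizontal axis) in each tumour (points) for the 13 gene intervals past limma's test, with the mean of the 4 tumours (black bars), the mean without the most extreme probe (crosses) and the number of probes in brackets. The bars run from -0.27 (AK014969) to 0.16 (AK043578), and the crosses of AK014969 and AK029426 lie above 0.

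Over all 834 gene intervals the median log2 ratio was 0.0083, -0.19, 0.0043 and -0.0064 in tumours 1 to 4, and tumour 2 was the lowest tumour in 771 (92.4%), against 24.6% of all gene intervals of the genome. This follows from the choice of the chromosome. Only 25 intervals were above 0 in tumour 2. Of 64 genes on 4 lists of liver, growth, repair and very long genes, 64 were below 0 in tumour 2 and 61 were lowest there. The choice of the chromosome sets this up as well.

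Of the liver metabolism genes 18 of 20 were measured, and 16 were lowest in tumour 2, with a median of -0.13 there and 0.056, -0.030 and 0.0066 in tumours 1, 3 and 4. None was past limma's test relative to the chromosome in either direction. Slc28a3, a nucleoside transporter gene (58660856 to 58706945), was at 0.040, -0.26, 0.029 and -0.017, and averaged -0.020 relative to the chromosome. Fbp1, the fructose bisphosphatase of gluconeogenesis, was at 0.058, -0.16, 0.050 and -0.015.

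Some liver genes stood nearer 0 in tumour 2 than their chromosome. F12, coagulation factor XII, was the highest of the list by its mean relative to the chromosome, at 0.19, -0.021, -0.026 and 0.092, with tumours 2 and 3 level. Bhmt, the betaine homocysteine methyltransferase of the liver, was at 0.15, -0.0050, -0.11 and 0.043, with tumour 3 below tumour 2. Tumour 1 was the highest in both.

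Of the growth and tumour genes 32 of 38 were measured, with tumour 2 the lowest in 31 and a median of -0.23 there, against -0.0080, -0.000085 and 0.0018 in tumours 1, 3 and 4. Relative to the chromosome 1 passed lower (Cdc14b) and 0 higher. Tert, the telomerase reverse transcriptase (73768191 to 73775907), was at 0.0095, -0.28, 0.039 and 0.0063. Map3k1, a kinase upstream of Jnk signalling, was at -0.039, -0.28, -0.017 and -0.051. Pik3r1, the regulatory subunit of phosphoinositide 3-kinase, was at 0.023, -0.22, 0.00063 and 0.053. That tumour 2 was lowest in these genes is set up by the choice of the chromosome. Relative to the chromosome they averaged -0.026, -0.065 and -0.0054 over the tumours.

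Irf4, a lymphoid transcription factor gene, was at -0.13, -0.40, 0.082 and 0.0052. Klf6, a zinc finger transcription factor gene, was at -0.097, -0.27, 0.035 and -0.018. Cks2, a subunit of cyclin-dependent kinases, was at -0.16, -0.43, -0.078 and -0.13, the lowest of the list in tumour 2. Ptch1, the Hedgehog receptor that restrains Smoothened, was at 0.17, -0.16, -0.088 and 0.045. Edn1, the precursor of endothelin, was the highest relative to the chromosome at 0.13, -0.017, 0.037 and 0.091, and Plk2, a polo-like kinase gene, was close by at 0.089, -0.018, 0.026 and 0.010. E2f3, a cell cycle transcription factor gene, was at 0.12, -0.041, -0.066 and 0.059 and was the member in which tumour 3 lay lowest. Fst was at 0.16, -0.30, -0.26 and 0.097, over 7 probes that include the opposite one described above.

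All 7 DNA repair genes were measured and were lowest in tumour 2, with a median of -0.24 there and -0.029, -0.022 and -0.043 in tumours 1, 3 and 4; 0 passed limma's test relative to the chromosome. Polk, a translesion polymerase gene, was the lowest at -0.16, -0.40, 0.0087 and -0.11. Xrcc4, of non-homologous end joining, was the highest at -0.029, -0.16, 0.13 and 0.028. Msh3, of mismatch repair, was at -0.050, -0.24, -0.091 and -0.043, and Ercc8, of transcription-coupled repair, at 0.014, -0.11, -0.049 and 0.034.

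Very long genes give the most probes for a single gene, and 9 of 11 were measured. Pde4d, with 136 probes over 109445620 to 110740901 and its flanks, was at 0.014, -0.19, 0.039 and -0.0037. Ryr2, a calcium release channel gene with 63 probes, was at -0.038, -0.20, 0.033 and 0.011. Both lay at the level of the chromosome in every tumour. Vcan, for the matrix proteoglycan versican, was the lowest at -0.22, -0.40, 0.0023 and -0.10 over 16 probes, and Dapk1, a death-associated kinase gene, the highest at 0.062, -0.12, 0.020 and -0.0052. None passed limma's test relative to the chromosome, and the median in tumour 2 was -0.20.

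The stretches left out of the members did not differ from their surroundings in a way that changes the level. The last 10 members before the Tcrg megabase were at 0.029, -0.22, 0.13 and 0.093 in tumours 1 to 4, and the first 10 probes left out at 0.12, -0.031, 0.11 and 0.12. The last 10 left out were at 0.069, -0.13, 0.10 and 0.034, and the first 10 members after them at 0.10, -0.11, 0.030 and 0.031. The Nnt probes were at 0.0030, -0.23, 0.060 and -0.071, between members at -0.093, -0.32, -0.059 and -0.14 before and -0.10, -0.44, -0.16 and -0.35 after. With both stretches kept, tumour 2 stayed -0.197 from the mean of the others.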

How the data were processed

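Genomic DNA of 4 tumours was hybridised on Agilent arrays of 180880 features against pooled reference DNA. Per the file headers, the authors' deposited log10 ratio of a spot is its red over its green signal, from which background had been subtracted and whose dyes had been scaled linearly (lowess term 0). Processed and raw intensity, with the local background, was deposited for both channels. The submitters' processing notes name Agilent Feature Extraction 10.7.3.1. The deposited value table of the series held the same log10 ratios within 0.5% at all features. Ratios were turned to log2 values of the deposited ratio, control spots and outlier spots (93 to 126 per array) were removed, spots of a probe were averaged, and the autosomal median of each array was subtracted. Positions are those of the files; without an mm9 annotation, exons and introns are not given. Names of genes come from the array design; 463 of 834 are current symbols and 71 older ones in a RefSeq table of another build, used for names only.

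Bins of 1 Mb needed at least 5 probes. Gene intervals (named probes plus 50 kb) had no minimum, and the called AK043578 and AK029426 held 3 probes each. Segments came from penalised least squares, penalised per break by 4 times the log probe number times the noise variance, and were called at 0.2 over at least 5 probes. Bins and genes relative to the median of their chromosome were tested with limma 3.58.1 in R 4.3.3 (moderated intercept, Benjamini-Hochberg under 0.05 over all bins or genes). The scripts were tested on simulated data. The tumours came from separate mice, per the labels; there was 1 group, 1 array per tumour, and their number limits the precision. The chromosome, its members and the gene lists were chosen with earlier results of these data known. Named genes are the lowest and highest of each list relative to the chromosome, list members in the account of where they lie, genes past limma's test and genes of short segments; other genes were picked once values were known. The alternatives tried were normexp (offset 50), centring on the mode or without 4 chromosomes, ratios from the value table, removal of probes not well above background, GC correction by lowess, loess, other bins, flanks, thresholds and penalties, each tumour left out, the members left out kept in and, added after the data were seen, the mean of a slide as the unit. A few genes that this rule picks are not reported here.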

Additional observations from a re-analysis of the deposited data

Results flagged for a closer look

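The 4 tumours were checked for a value far from the others in 74 windows, clusters and named genes of chromosome 13. Dixon's ratio was used at its 95% critical value, which chance exceeds in about 5% of groups. Values were taken relative to the chromosome, which takes out most of the level that chose it. The check marked 3. In the first 10 Mb tumour 3 stood apart at 0.0064, above the other tumours. In 1110018J18Rik tumour 2 stood apart at -0.25, below the others. In Gpx8 tumour 3 stood apart at -0.15, above the others.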

How the results depend on the processing

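The level of chromosome 13 in each tumour moved by less than the SD over the 4 tumours (0.099) under every alternative run. That is a loose measure, because tumour 2 itself widens this SD, which was 0.015 over tumours 1, 3 and 4. The gap of tumour 2 to the mean of the others was -0.22 with normexp, -0.23 with centring on the mode and -0.18 with within-array loess. In these settings it moved by more than 0.015. It was -0.20 to -0.19 with a tumour left out. The share of chromosome 13 called lost in tumour 2 was 100% with normexp, 99.99% with centring on the mode, with centring without chromosomes 9, 12, 13 and 15 and with a threshold of 0.1, 0% with a threshold of 0.3, 23.5% with a penalty of 2 and 0% with a penalty of 8; that of tumour 4 was 0.933% with a threshold of 0.1. Gene intervals past limma's test numbered 59 with normexp (10 of the 13 among them), 3 with loess, 2 with no flank (none of the 13), 0 when not set relative to the chromosome, 0 with the mean of a slide as the unit and 0 to 287 with a tumour left out. Bins past the test numbered 0 to 41 with a tumour left out. With no flank AK014969 turned to 0.017 and 4833420G17Rik to 0.010. The aldo-keto reductases relative to the rest of the chromosome were at -0.011 with loess. Over the alternatives the cathepsins stayed below the rest (-0.100 to -0.038) and the stretch from Btn2a2 to Slc17a2 above it (0.035 to 0.070), while the other clusters changed sign. Of 504 values of 42 named genes under 12 alternatives each, 499 kept tumour 2 below the mean of the others; the others were in F12, Bhmt, E2f3 and Akr1c20. The slide as a random block could not be fitted with 2 of 4 arrays on a slide. No paired analysis was possible because there was 1 group. Noise in tumour 2 limits what can be seen in single genes.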

Other observations

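The 63 gene intervals in which tumour 2 was not the lowest were spread unevenly. Of these, 32 (50.8%) started from 40 to 60 Mb, where 189 (22.7%) of the 834 intervals lie, and tumour 3 was the lowest in 57 and tumour 4 in 6. Neighbouring intervals share probes, and some pairs hold the same values, so these are not counts of independent items. The stretch from 40 to 60 Mb was picked after the values were seen. Tmem14c, a mitochondrial membrane protein gene needed for haem synthesis, was at 0.26, 0.058, -0.066 and 0.11 in tumours 1 to 4, and Ror2, a Wnt receptor gene, at 0.27, 0.038, -0.0068 and 0.13. Gmnn, which encodes the replication licensing inhibitor geminin, was outside it at 0.25, -0.016, -0.023 and 0.062. In all 3 tumour 1 was the highest and tumours 2 and 3 were the lowest.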
